A study of Bos taurus with 94 samples.

Results

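The oviduct ampulla and infundibulum were compared in 4 bovine RNA-seq libraries, 1 from each side of the tract per segment, and the contralateral isthmus was placed as the third segment of the tube. These 5 libraries, picked by their tissue labels, belong to a collection of 94 libraries of cattle tissues, and the oviduct has 6 libraries in all because an ipsilateral isthmus was also sequenced. Each of the 6 is labelled as adult Hereford tissue, with no treatment and no named animal, so whether the libraries share an animal is not stated. RNA came from whole snap-frozen tissue. The infundibulum and isthmus labels give the side relative to "CL", and the ampulla labels give the side alone. The 2 sides served as the 2 replicates of a segment, so each p-value here measures only the spread between these libraries.

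The oviduct carries the ovulated egg from the ovary to the uterus. Its funnel-shaped infundibulum catches the egg with a densely ciliated, folded lining, the ampulla is the usual site of fertilisation, and the narrow isthmus has the thickest muscle wall and holds sperm before ovulation. Ciliated cells become sparser and smooth muscle thicker along the tube towards the uterus. The lining also holds secretory cells that release glycoproteins into the lumen.

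Values are FPKM, fragment numbers scaled by transcript length and by the mapped fragments of the library, and read depth is unknown. Differences are on the scale log2(FPKM + 1), ampulla minus infundibulum, and understate the change of low genes. The table names genes by Ensembl identifier only. None of the 24616 identifiers could be paired with a symbol (0 matched), so neither ciliary, secretory and muscle marker lists nor the tissue labels could be checked by named markers. In their place, genes were grouped by the libraries outside the oviduct in which they are highest. The 4 libraries each had 13029 to 13553 genes at an FPKM of at least 1 and FPKM totals of 644159 to 696945, against a median total of 710126 over the 94 libraries.

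Libraries of one segment resembled each other more than they resembled the other segment. Across the 13629 genes tested, Spearman's rho was 0.979 between the ampullae and 0.958 between the infundibula. Between segments it was 0.895 on the ipsilateral side, 0.943 on the contralateral side, and 0.928 and 0.899 across sides. The contralateral infundibulum was thus nearer to both ampullae than the ipsilateral infundibulum was. The infundibula also differed more from each other, with 992 genes at least 2-fold apart, than the ampullae did, with 236. Genes are not independent replicates, and these correlations describe the libraries only.

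More than 600 genes were called in each direction between the segments. With limma on all 13629 genes, side as a block and Benjamini-Hochberg adjustment, 613 genes (4.5% of those tested) were higher in ampulla and 668 (4.9%) higher in infundibulum, at an adjusted p under 0.05 and at least a 2-fold difference. At an unadjusted p under 0.05 there were 4250 genes. This fit has 1 residual degree of freedom, and its calls fell to 12 and 11 with no replicate block, to 4 and 7 with no filter on low values, and to 0 in both directions after quantile normalization, where 3937 genes had an unadjusted p under 0.05. Without 1 library, and then without block, both counts were 0 where either ampulla was left out, 465 and 246 without the ipsilateral infundibulum, and 702 and 1367 without the contralateral infundibulum. A count that uses no spread estimate was also made: 265 genes (1.94%) had both ampullae at least 2-fold above both infundibula, and 205 (1.5%) the reverse. Such genes are called separated here, and 262 and 201 of them were also called by limma. After quantile normalization 275 and 230 were separated. Without the ipsilateral ampulla there were 346 and 389, without the contralateral ampulla 647 and 290, without the ipsilateral infundibulum 571 and 243, and without the contralateral infundibulum 541 and 1207, since fewer libraries then have to agree.

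Differences of at least 2-fold were more frequent on the ipsilateral side. On that side, 1035 genes were at least 2-fold higher in ampulla and 1374 in infundibulum. The contralateral side had fewer, 660 and 451. On both sides 435 and 371 genes passed, and 6 genes were at least 2-fold apart in opposite directions. The median absolute difference between segments was 0.42 on the ipsilateral side and 0.30 on the contralateral side, against 0.19 between the ampullae and 0.31 between the infundibula. On the contralateral side the segments therefore differed about as much as the infundibula did from each other. With side as the tested term limma called 0 genes in either direction, while 1435 had an unadjusted p under 0.05, and 4 genes were separated by side as ipsilateral-higher and 16 as contralateral-higher.

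**Figure D1:**
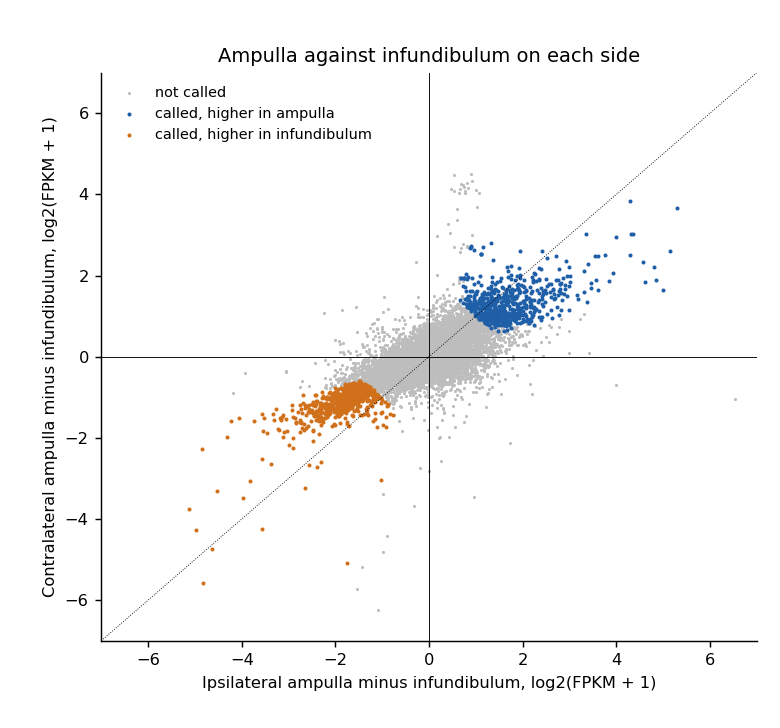
Each point is 1 of the 13629 tested genes, with the ipsilateral difference on the x axis and the contralateral difference on the y axis, both ampulla minus infundibulum on log2(FPKM + 1). The 613 genes called higher in ampulla (blue) lie at the upper right and the 668 called higher in infundibulum (orange) at the lower left. The dotted line marks equal differences.

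The genes higher in infundibulum reached high levels more often and were the more uneven between sides. Their median difference was -1.38 (quartiles -1.18 and -1.67), with -1.73 on the ipsilateral side and -1.05 on the contralateral side. Together they made up 9.13% of all FPKM in the ipsilateral infundibulum and 4.57% in the contralateral one, against 2.37% and 2.04% in the ampullae. The ampulla-higher genes had a median of 1.38 (quartiles 1.19 and 1.70), with 1.52 and 1.26 on the sides. They made up 6.65% and 5.77% of FPKM in the ampullae and 1.90% and 2.12% in the infundibula. Of the infundibulum-higher genes 144 reached 100 FPKM in any of the 4 libraries and 98 stayed under 10, whereas of the ampulla-higher genes 60 reached 100 FPKM and 294 stayed under 10. Among tested genes at 100 FPKM or more, 12.2% were called higher in infundibulum and 5.07% in ampulla. Among those between 1 and 10 FPKM the shares were 1.94% and 5.82%.

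In each direction 2 identifiers are given in full, those with the widest gap between the segments among called genes with a mean of at least 5 FPKM in the higher segment. ENSBTAG00000004924 stood at 43.8 FPKM in the ipsilateral and 21.6 FPKM in the contralateral ampulla, and at 1.30 and 0.567 FPKM in the infundibula. The contralateral and ipsilateral isthmus had 204 and 271 FPKM, so the level was lowest at the ovarian end and highest at the uterine end in these libraries. The difference was 4.07 ± 0.23 (SE, n = 2 libraries a segment; limma adjusted p = 0.00731). Outside the oviduct it was highest in fetal testis (861 FPKM), urethra (724 FPKM) and KPH fat (464 FPKM). The uterine myometrium had 174 FPKM and the intercaruncular endometrium 141 and 230 FPKM.

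ENSBTAG00000021306 had 38.2 and 54.7 FPKM in the ampullae, was listed at 0 in the ipsilateral infundibulum and had 3.40 FPKM in the contralateral one. The isthmus libraries had 97.2 FPKM (ipsilateral) and 47.3 FPKM (contralateral), near or above the ampullae. The difference was 4.48 ± 0.39 (SE, n = 2 libraries a segment; limma adjusted p = 0.0231). Larynx (258 FPKM), myometrium (114 FPKM) and vas deferens (45.9 FPKM) were the highest libraries outside the oviduct, and both intercaruncular endometrium libraries listed it at 0. The segments do not overlap for these genes because the genes were picked for a wide gap. Of all 13629 tested genes, 3246 had both ampullae above both infundibula by any gap, and 4917 the reverse.

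ENSBTAG00000014678 was listed at 0 in both ampullae and both isthmus libraries and stood at 27.3 FPKM in the ipsilateral and 46.4 FPKM in the contralateral infundibulum. The limma difference was -5.20 ± 0.26 (SE, n = 2 libraries a segment; adjusted p = 0.00581) on log2(FPKM + 1), and it is no fold because 1 segment is listed at 0. This gene is far more abundant in the mammary libraries, at 128763 FPKM in one and 2672 FPKM in the other, and is listed at 0 in 68 of the 88 libraries outside the oviduct. Its levels in the infundibula amount to 0.0212% (ipsilateral) and 0.0361% (contralateral) of the first mammary library and to 1.02% and 1.74% of the second.

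The contralateral infundibulum also held other mammary genes. The 10 leading genes of the mammary gland library all reached 1 FPKM in the contralateral infundibulum, at a median of 36.3 FPKM and between 1.05% and 1.92% of their level in that library. Their median was 0 in both ampullae and in the contralateral isthmus, and 0.0653% of the mammary gland level in the ipsilateral infundibulum. Genes highest in a mammary library made up 1.35% of the infundibulum-higher genes (9 of 668), 2.12% of the ampulla-higher genes (13 of 613) and 2.14% of all tested genes. Of the infundibulum-higher genes 659 were left without them, or 649 without the 100 leading genes of either mammary library. Those leading genes made up 19 of the 668 infundibulum-higher genes, 11 of the 613 ampulla-higher genes and 115 of all 13629 tested genes. By this measure the infundibulum-higher genes held more mammary genes than the ampulla-higher ones. Of the 205 separated infundibulum-higher genes, 9 (4.39%) were highest in a mammary library, and 196 and 190 were left. Of the 265 separated ampulla-higher genes 2 (0.755%) were highest in a mammary library. The leading mammary genes made up 15 of the 205 and 5 of the 265 separated genes. The part of mammary RNA in the values of single genes such as ENSBTAG00000014678 was not tested.

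ENSBTAG00000035926 had 23.9 and 25.8 FPKM in the infundibula and was listed at 0 in both ampullae and both isthmus libraries. The limma difference was -4.69 ± 0.22 on log2(FPKM + 1) (SE, n = 2 libraries a segment; adjusted p = 0.00581), again no fold. Its presence was patchy across the collection, where 39 of the 94 libraries list it at 0 and 27 hold 100 FPKM or more. Of the follicle libraries 2 had 490 and 386 FPKM and the other was at 0. Caruncular endometrium had 212 FPKM and both intercaruncular libraries were at 0. Related tissues thus differed from an exact 0 to high levels. Without counts, a 0 in this table may also stand for an estimate that failed. After quantile normalization the limma adjusted p of each of the 4 genes was 0.0709. With both isthmus libraries in the fit it was 0.930 for ENSBTAG00000021306 and 0.286 for each of the other 3. With no replicate block it was 0.0483 for ENSBTAG00000004924, 0.0835 for ENSBTAG00000021306, 0.0203 for ENSBTAG00000014678 and 0.0166 for ENSBTAG00000035926.

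**Figure D2:**
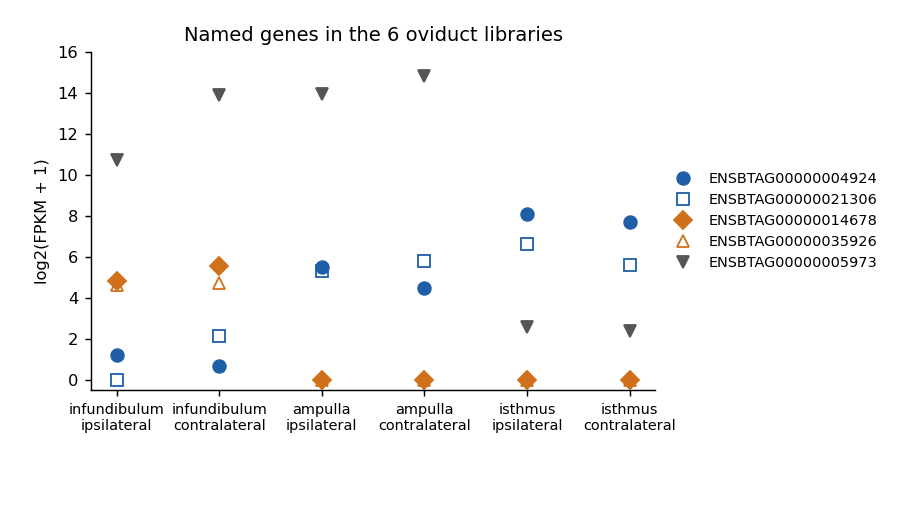
The y axis gives log2(FPKM + 1) of 5 identifiers in the 6 oviduct libraries on the x axis, 1 point per gene and library. Blue marks genes higher in ampulla and orange genes higher in infundibulum, whose ampulla and isthmus points lie at 0. Grey marks ENSBTAG00000005973, which is abundant in the ampulla and infundibulum libraries but not in the isthmus, and was not called.

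A gene abundant in both segments, but not in the isthmus, did not separate them. ENSBTAG00000005973 had 15895 and 29373 FPKM in the ampullae, and 1703 (ipsilateral) and 15461 FPKM (contralateral) in the infundibula. It was at 4.94 and 4.13 FPKM in the isthmus libraries and at most 19.9 FPKM in any library outside the oviduct. The contralateral infundibulum lay just under the lower ampulla and far above the ipsilateral infundibulum. The difference was 2.07 ± 0.61 (SE, n = 2 libraries a segment) with a limma adjusted p of 0.0820.

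Few genes were listed at 0 in 1 segment and present in the other. Of the 13629 tested genes, 12 were at 0 in both ampullae with at least 1 FPKM in both infundibula. All 12 were also at 0 in the contralateral isthmus, which lists 8052 of the 24616 genes at 0. How often any gene at 0 in both ampullae is at 0 there was not counted. Of these, 5 were highest in a mammary library. The reverse pattern held for 6 genes, of which 1 reached 1 FPKM in the contralateral isthmus.

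The contralateral isthmus lay on the ampulla side of the infundibulum-higher genes and went further. Of the 668 genes, 573 (85.8%) were closer in isthmus to the ampulla than to the infundibulum, against 54.4% of all tested genes. In 491 of them (73.5%) the isthmus was lower than the ampulla, and in 243 (36.4%) by at least 2-fold. Over all tested genes the isthmus lay beyond the ampulla, away from the infundibulum, in 40.8%, and by at least 2-fold in 6.75%. For the 668 genes the median isthmus level was -0.66 relative to the ampulla and -1.74 relative to the infundibulum. When 1374 genes were chosen on the ipsilateral libraries alone, the contralateral ones played no part in the choice. The isthmus was then closer to the ampulla in 81.9% and lay beyond it, away from the infundibulum, in 69.9%. Beyond is counted by the contralateral order of ampulla and infundibulum, whichever was higher. The isthmus held 1.45% of its FPKM in the 668 genes.

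The ampulla-higher genes had no such order. Of the 613 genes the contralateral isthmus was closer to the ampulla in 369 (60.2%), lay between the segments in 52.2%, was above the ampulla in 32.5% and below the infundibulum in 15.3%. The median isthmus level was -0.46 relative to the ampulla and 0.84 relative to the infundibulum. In 89 genes the isthmus was at least 2-fold above the ampulla. The contralateral ampulla played a part in choosing the 613 genes. Among 1035 genes chosen on the ipsilateral libraries alone, the contralateral isthmus was closer to the ampulla in 63.2%. It lay beyond the ampulla, away from the infundibulum, in 44.9% and between the segments in 33.3%. Beyond is counted by the contralateral order of ampulla and infundibulum, which this choice did not fix. Its median relative to the ampulla was then 0.05, so the median below the ampulla was not seen with this choice. Over all tested genes 54.4% were closer to the ampulla and 40.8% beyond it. With the ipsilateral libraries in place of the contralateral ones 18.3% of the 613 genes were closer to the ampulla, and for the infundibulum-higher genes 86.8%. The ipsilateral isthmus stands apart from the other oviduct libraries: its rho with them was 0.711 to 0.791, and its closest library outside the oviduct was the anterior eye (0.873). It had 10896 genes at an FPKM of at least 1. The contralateral isthmus had a rho of 0.915 and 0.907 with the ampullae and 0.884 and 0.813 with the infundibula. Its closest library of all also lay outside the oviduct, the fornix vagina (0.918).

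**Figure D3:**
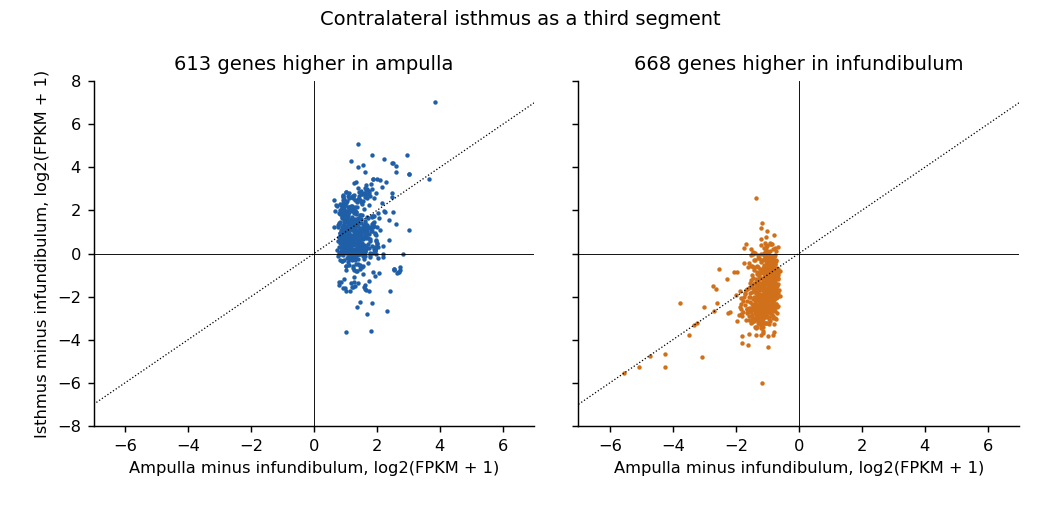
Each point is a called gene, 613 higher in ampulla on the left and 668 higher in infundibulum on the right, with the contralateral ampulla minus infundibulum on the x axis and isthmus minus infundibulum on the y axis, both on log2(FPKM + 1). Points on the dotted line have equal isthmus and ampulla levels, and in the right panel 73.5% lie past it, at lower isthmus levels.

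Stepwise order along the tube could be counted in the contralateral libraries. Of the 13629 genes 160 (1.17%) fell by at least 2-fold from infundibulum to ampulla and again from ampulla to isthmus, and 69 (0.506%) rose in both steps. The ampulla was at least 2-fold above both neighbours in 211 genes and below both in 67. Among genes with ampulla and infundibulum within 2-fold of each other, the isthmus was at least 2-fold above both in 546 and below both in 603. At 2-fold, isthmus and ampulla differed in 15.8% of genes, isthmus and infundibulum in 17.8%, and infundibulum and ampulla in 8.15%. These are single libraries, so the counts have no replicate check.

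Many genes that lead in the uterine myometrium were called higher in ampulla. For each of 12 tissues outside the oviduct, 100 genes were taken whose level in that tissue most exceeds the median of the other libraries outside the oviduct. Of the 86 tested genes of the uterine myometrium, the muscle layer of the uterus, 40 were called higher in ampulla and 2 in infundibulum, where 4.5% and 4.9% of all tested genes were called. The median difference was 1.23 against -0.07 for all tested genes. The median was 1.39 on the ipsilateral and 0.74 on the contralateral side. Mean log2(FPKM + 1) over the 100 genes was 4.28 and 3.93 in the ampullae, 2.89 and 3.25 in the infundibula, and 4.48 and 4.84 in the isthmus libraries. By these means the ampullae were above the infundibula. The isthmus libraries had the highest means, but the median FPKM of the 100 genes was 17.4 in the ipsilateral isthmus and 23.4 in the contralateral one, against 19.2 and 12.3 in the ampullae and 4.30 and 5.62 in the infundibula. For the 187 tested genes that are highest in myometrium outside the oviduct, the mean log2(FPKM + 1) of the ipsilateral isthmus, 3.41, was below both infundibula (3.66 and 3.68). In bulk tissue, more cells of a type and more RNA per cell cannot be told apart.

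The same background of 4.5% and 4.9% called applies to the other sets, and several of their smaller counts are near it. Of 80 tested aorta genes 23 were called higher in ampulla and 4 in infundibulum (median 0.58, with 0.88 and 0.28 on the sides). Of 76 tested genes of the intercaruncular endometrium, the uterine lining between the attachment sites, 21 and 7 were called (median 0.50). The aorta and endometrium sets share 15 and 14 genes with the myometrium set, so they partly count the same genes. Of 71 tested follicle genes 20 and 5 were called, with a median of 0.13. Of 49 tested genes of the bladder, another muscle-walled organ, 3 were called higher in ampulla and 17 in infundibulum (median -0.86, with -0.90 and -0.69). The bladder set shares 1 gene with the myometrium set, 2 with the aorta set and 21 with the nasal mucosa set. Spleen, lymph node and white blood cell sets had at most 3 calls in a direction among 69 to 78 tested genes, a share no higher than the background. Their medians ranged from -0.16 to 0.06.

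**Figure D4:**
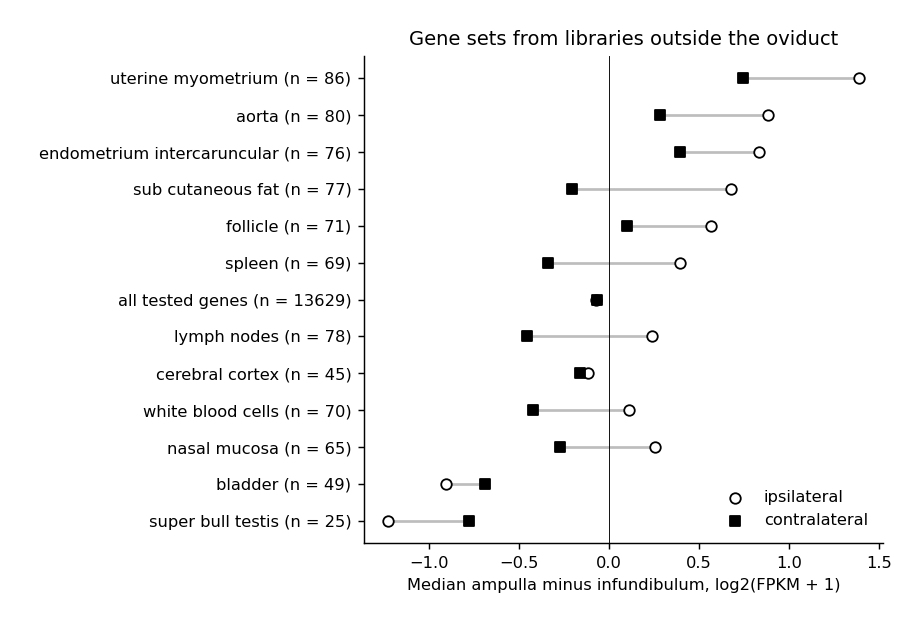
The x axis gives the median ampulla minus infundibulum difference, on log2(FPKM + 1), of the tested genes of each set on the y axis, with open circles for the ipsilateral and filled squares for the contralateral side. The uterine myometrium set lies furthest right at 1.39 and 0.74, and the bull testis set furthest left at -1.23 and -0.78. Only 25 of the 100 bull testis genes were tested. The other 75 did not pass the filter on low values, which a gene can pass in the infundibula alone.

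Genes that are highest in bull testis outside the oviduct were frequent in the infundibulum group. Among all tested genes 1985 (14.6%) were highest in that library outside the oviduct, among the 668 infundibulum-higher genes 233 (34.9%), and among the 613 ampulla-higher genes 38 (6.20%). As background, sperm tails and motile cilia share the axoneme as their core. Which of these identifiers encode parts of it was not tested, since the table gives no names. This grouping was chosen after the values were seen.

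The share called was larger for testis-led genes found in few other tissues. Of the 1356 genes in the table that are highest in bull testis (at 1 FPKM or more) and reach 1 FPKM in at most 20 of the other 87 libraries outside the oviduct, 239 passed the filter on low values. Of those 112 (46.9%) were called higher in infundibulum and 3 in ampulla, where 4.9% and 4.5% of all tested genes were. Among 213 of them that reached 1 FPKM in both segments, so that neither segment alone had let them pass, the calls were 109 and 1. By contrast, of 657 testis-led genes that reached 1 FPKM in 21 to 80 of the 87 libraries 98 (14.9%) were called higher in infundibulum and 23 in ampulla, and of 1087 in more than 80 libraries 23 and 12. The median difference of these 213 was -1.53 on the ipsilateral and -0.77 on the contralateral side. Of the 133 genes with a mean of at least 5 FPKM over the 4 libraries, 97 were called higher in infundibulum and 0 in ampulla. A gene can reach that mean through the infundibula alone, so this count is not independent of the direction. The share of all tested genes called at that mean was not counted.

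Most of the 213 genes were ordered along the tube. Their median level was 16.4 FPKM in the ipsilateral and 6.84 FPKM in the contralateral infundibulum, 4.87 and 3.84 FPKM in the ampullae, and 0.544 and 1.22 FPKM in the isthmus libraries. The infundibulum exceeded the ampulla in 200 genes on the ipsilateral and 188 on the contralateral side. The contralateral ampulla exceeded the contralateral isthmus in 206, and all 3 segments stood in the order infundibulum, ampulla, isthmus in 183. Of the other tested genes 21 reached 1 FPKM in the infundibulum alone and 5 in the ampulla alone. The 213 genes had to reach 1 FPKM in both segments but not in the isthmus, so the choice favours an isthmus below the ampulla. Before any filter, the contralateral ampulla exceeded the isthmus in 504 of the 1356 genes, and 321 stood in the full order. The median of the 1356 genes was 0 FPKM in each of the 6 libraries. The 100 leading testis genes, taken over all libraries outside the oviduct, sat at a median of 0.0286% and 0.00484% of the testis level in the infundibula and at 0 in the ampullae.

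**Figure D5:**
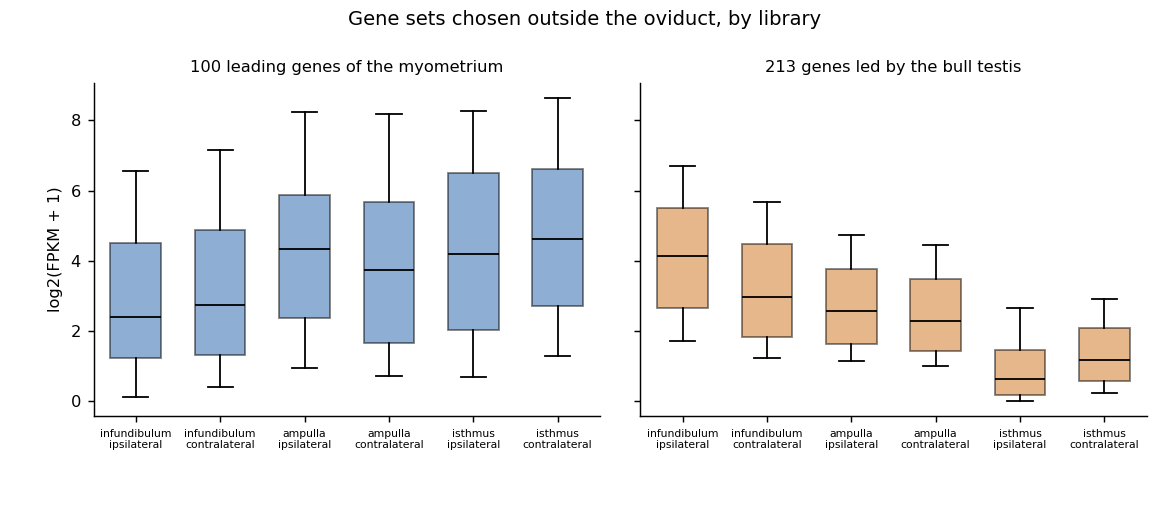
Boxes give the median and quartiles, and whiskers the 10th and 90th percentiles, of log2(FPKM + 1) in the 6 oviduct libraries, for the 100 leading myometrium genes on the left and 213 testis-led genes on the right. Myometrium genes were higher in the ampulla and isthmus libraries than in the infundibula, and the testis-led genes were lower from infundibulum to ampulla to isthmus.

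Many infundibulum-higher genes were above every tissue outside the oviduct. The highest of the 4 segment libraries exceeded all 88 outside libraries for 295 of the 668 genes (44.2%), for 44 of the 613 ampulla-higher genes (7.18%) and for 6.54% of all tested genes. In 176 (26.3%) of the infundibulum-higher genes the excess was at least 2-fold. The same libraries chose the genes and set this maximum, so no test was made. A typical infundibulum-higher gene reached 1 FPKM in a median of 40.5 of the 88 libraries, against 67 for the ampulla-higher genes and 85 for all tested genes. Of the ampulla-higher genes 49 (7.99%) were highest in myometrium outside the oviduct, against 187 (1.37%) of all tested genes and 0 of the infundibulum-higher ones.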

How the data were processed

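RNA-seq of 94 bovine libraries was analysed from a deposited table of FPKM for 24616 Ensembl genes. HISAT2, StringTie and build UMD3.1 are named in the submitters' processing notes, with versions not given in the sources used here. FPKM holds no counts, so depth is unknown. From it log2(FPKM + 1) was computed, and genes at 1 FPKM in at least 2 of the 4 ampulla and infundibulum libraries entered a two-sided limma test (version 3.58.1, R 4.3.3) with a variance trend and side as block. Calls needed a Benjamini-Hochberg adjusted p under 0.05 over all genes tested and a difference of at least 1. Separated genes, isthmus placement and tissue sets are descriptions without a test, computed with Python 3.11.15.

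Pairing by side comes from the labels. Deviations from segment means of same-side libraries correlated at 0.225. Named genes are the called genes with the widest gap at a mean of 5 FPKM or more, 2 identifiers a direction, because 0 identifiers matched a symbol and symbol lists could not be used. The members, lists and groupings were chosen with earlier results of these data known. Alternatives covered the pseudocount, filters, scaling, block, libraries in the fit and left-out libraries.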

Additional observations from a re-analysis of the deposited data

Results flagged for a closer look

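In 5 of the 12 tissue sets the median ampulla minus infundibulum difference had opposite signs on the 2 sides. The difference between sides was not tested, since each segment has 1 library a side. The medians were 0.26 on the ipsilateral and -0.27 on the contralateral side for nasal mucosa genes, and 0.68 and -0.21 for subcutaneous fat genes. They were 0.24 and -0.46 for lymph node genes, 0.40 and -0.34 for spleen genes, and 0.11 and -0.42 for white blood cell genes. In each of these sets the ipsilateral side had the higher value.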

How the results depend on the processing

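The limma calls depend on 1 residual degree of freedom, and their counts moved with most settings. With no replicate block 12 genes were called higher in ampulla and 11 in infundibulum. With no filter on low values there were 4 and 7, with a filter of 1 FPKM in 3 of the 94 libraries 0 and 0 (3464 genes at an unadjusted p under 0.05), after quantile normalization 0 and 0, with both isthmus libraries in the fit 0 and 0 (716 at an unadjusted p under 0.05), and with the spread of all groups 0 and 3 (711 at an unadjusted p under 0.05). A filter of 5 FPKM gave 370 and 570. Without 1 library, and then without block, the ranges were 0 to 702 and 0 to 1367: both counts were 0 without either ampulla, 465 and 246 without the ipsilateral infundibulum, and 702 and 1367 without the contralateral infundibulum. The lone library is then assumed to vary like the other group.

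Separated genes numbered 501 and 326 with a pseudocount of 0.1, and 346 to 647 and 243 to 1207 without 1 library, the highest being 647 without the contralateral ampulla and 1207 without the contralateral infundibulum. The share of genes with an isthmus closer to the ampulla was 64.1% (pseudocount 0.1) and 18.3% (ipsilateral libraries) for ampulla-higher genes. For infundibulum-higher genes it was 88.8% (separated genes) and 81.9% (genes chosen ipsilaterally, an alternative added after seeing the data). The 4 named genes kept their direction in 8 alternatives each; of these 32 values 13 did not pass the threshold, with adjusted p from 0.000792 to 0.310. With both isthmus libraries in the fit their adjusted p was 0.286 to 0.930. Over the 12 tissue sets, 8 of 84 medians had the other sign, in 5 sets. The cause of these shifts was not tested.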

Other observations

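Sets of 100 leading genes were also taken for each of the 88 libraries outside the oviduct, an alternative added after seeing the data. The median difference was above 0 on both sides for 11 libraries and below 0 on both for 37. It was at least 0.5 for 6 and at most -0.5 for 13. After the myometrium (1.23) the highest were vas deferens (0.86), with 29 genes called higher in ampulla and 8 in infundibulum, and aorta (0.58). The vas deferens set shares 29 genes with the myometrium set and the aorta set 15, so these sets partly count the same genes. After the bull testis (-1.11, 25 genes tested) the lowest were kidney cortex (-1.04, 24 tested), and kidney medulla and bladder (both -0.86, 29 and 49 tested).

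Genes set apart in 1 of the 4 libraries were uneven. The contralateral ampulla stood at least 4-fold above the other 3 libraries in 35 genes, against 3 in the ipsilateral ampulla, 11 in the ipsilateral and 9 in the contralateral infundibulum. Of the 35 genes, 15 had another of the 35 within 10% of their values in all 4 libraries, and 6 were leading genes of a mammary library. Of the 9 genes of the contralateral infundibulum 7 were such mammary genes. The ipsilateral infundibulum stood at least 4-fold below the other 3 libraries in 15 genes.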
